A study of Mus musculus with 20 samples.

Results

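Aminoacyl-tRNA synthetases are the enzymes that join each amino acid to its transfer RNA. The 36 genes described here are 20 cytosolic and 16 mitochondrial synthetases, chosen by name from the 46078 genes of a table of liver read counts. The liver mRNA of 20 male mice, at least 9 weeks old at the start of the diets, was sequenced in 6 groups. Of the Cse+/- mice, 2 received the control diet, 4 a diet without cysteine (no Cys) and 3 a diet without tryptophan (no Trp). Of the Cse-/- mice, 4 received no Cys, 3 no Trp, and 4 no Trp with l-buthionine sulfoximine (BSO). The sample labels call the control genotype WT, whereas the study's list of mice calls it heterozygous, and that name is used here. Cse, whose gene symbol is Cth, is cystathionine γ-lyase, the enzyme that releases cysteine in the last step of its synthesis from methionine. Cse is deleted in the whole body on a mixed 129/C57BL/6 background, so that Cse-/- mice depend on cysteine from food. BSO inhibits the first enzyme of glutathione synthesis. All diets were based on the same defined amino acid diet and were calorie restricted, with the missing amino acid removed and the others raised in proportion, so that calorie restriction is shared by all 6 groups. By the study's account, the livers were taken after 2 days on these diets. No Cse-/- group fed the control diet was analysed here.

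Each cytosolic synthetase charges the transfer RNAs read by cytosolic ribosomes, whereas a second set, also encoded in the nucleus and imported, charges the transfer RNAs of mitochondria. Several cytosolic enzymes sit together in a multi-synthetase complex, and Gars and Kars each encode both the cytosolic and the mitochondrial enzyme. When an amino acid runs short, uncharged transfer RNA activates the kinase GCN2, translation of ATF4 rises, and ATF4 is known to drive genes for amino acid transport, synthesis and charging, many cytosolic synthetases among them. This pathway is known as the integrated stress response. Liver makes most plasma proteins, which gives it a high demand for charged transfer RNA.

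Counts on genes ranged from 11785740 to 57986121 per library. The targeted gene followed the labels, with 6.37 to 14.4 CPM (read counts scaled to a common library size by TMM factors) of Cth in the Cse-/- livers and 88.3 to 332 CPM in the Cse+/- livers. The hepatocyte markers were at high levels in all livers, 6 pancreatic acinar markers together never passed 2.05 CPM and none was tested, and of 5 lymphocyte markers only Ptprc passed 1.17 CPM in any liver. Among the Cse-/- livers on the no-Cys diet, mouse av08 had the lowest level of the 4 for 15 of the 20 cytosolic and 7 of the 16 mitochondrial synthetases, and values without it are given for the members that changed most. All 36 members had enough counts for the test, together with 14759 genes in all.

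The cytosolic synthetases were raised as a class in Cse-/- livers on the no-Cys diet. Their summed level was 1860 CPM in av05, 1943 CPM in av06, 1989 CPM in av07 and 1597 CPM in av08. In Cse+/- livers on the same diet, it was 1150 CPM in av01, 1141 CPM in av02, 1248 CPM in av03 and 1166 CPM in av04. No value was shared between the groups, and the lowest Cse-/- liver was av08. In the other groups the sum ranged from 1057 to 1199 CPM in Cse+/- livers on the no-Trp diet, from 1168 to 1177 CPM on the control diet, from 1165 to 1395 CPM in Cse-/- livers on the no-Trp diet, and from 1391 to 1458 CPM in those also given BSO. Every liver of the no-Cys Cse-/- group therefore lay above every other liver.

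The mitochondrial synthetases showed a smaller shift. Their sum was 415 to 573 CPM in Cse-/- livers on the no-Cys diet and 373 to 454 CPM in Cse+/- livers on that diet, so that these groups overlapped. Lars2, the mitochondrial leucyl-tRNA synthetase, made up 29.5% to 59.3% of that sum across the 20 livers. A sum without Lars2 was not planned and was added after the level of Lars2 was seen. Without Lars2, the sum was 283 to 297 CPM in Cse-/- and 259 to 279 CPM in Cse+/- livers on the no-Cys diet, narrowly without overlap. In the other groups it ranged from 237 to 262 CPM (Cse+/-, no Trp), 267 to 272 CPM (Cse+/-, control), 248 to 277 CPM (Cse-/-, no Trp) and 271 to 287 CPM (Cse-/-, no Trp with BSO). The ratio of the cytosolic sum to this mitochondrial sum was 5.65 to 6.90 in the no-Cys Cse-/- livers and 4.18 to 5.32 in all other livers.

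**Figure D1:**
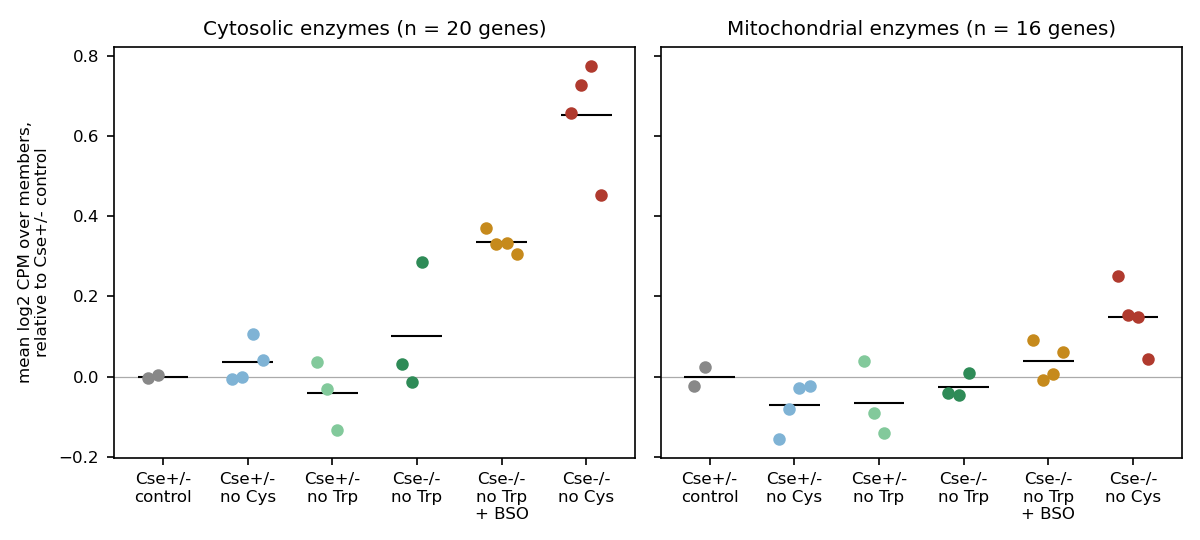
Mean log2 CPM over the 20 cytosolic (left) and the 16 mitochondrial (right) synthetases in each liver, as the difference from the average of the 2 Cse+/- livers on the control diet; points are livers and lines are group means. The 4 Cse-/- livers on the no-Cys diet lie between 0.45 and 0.78 in the left panel, above all other livers, and between 0.04 and 0.25 in the right panel.

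The first comparison asked how the Cse genotype changed these transcripts when cysteine was missing from the diet. Of the 20 cytosolic synthetases, 17 were higher in Cse-/- than in Cse+/- livers and none was lower (edgeR quasi-likelihood test, Benjamini–Hochberg adjusted p under 0.05), and the groups did not overlap for 15. Of the 16 mitochondrial synthetases, 5 were higher, 1 was lower and 10 did not pass the test, and the groups did not overlap for 5 higher and 2 lower members. Across all genes tested, 23.8% were called, 11.6% higher and 12.2% lower, and the groups did not overlap for 12.0% of genes in the higher and 11.2% in the lower direction. The median log2 fold change was 0.56 for the cytosolic and 0.30 for the mitochondrial synthetases, beside -0.01 for all genes. All 20 cytosolic values and 14 of 16 mitochondrial values were above 0. The difference between the classes was not tested. In bulk tissue, fewer cells of a type and less RNA per cell cannot be told apart.

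**Figure D2:**
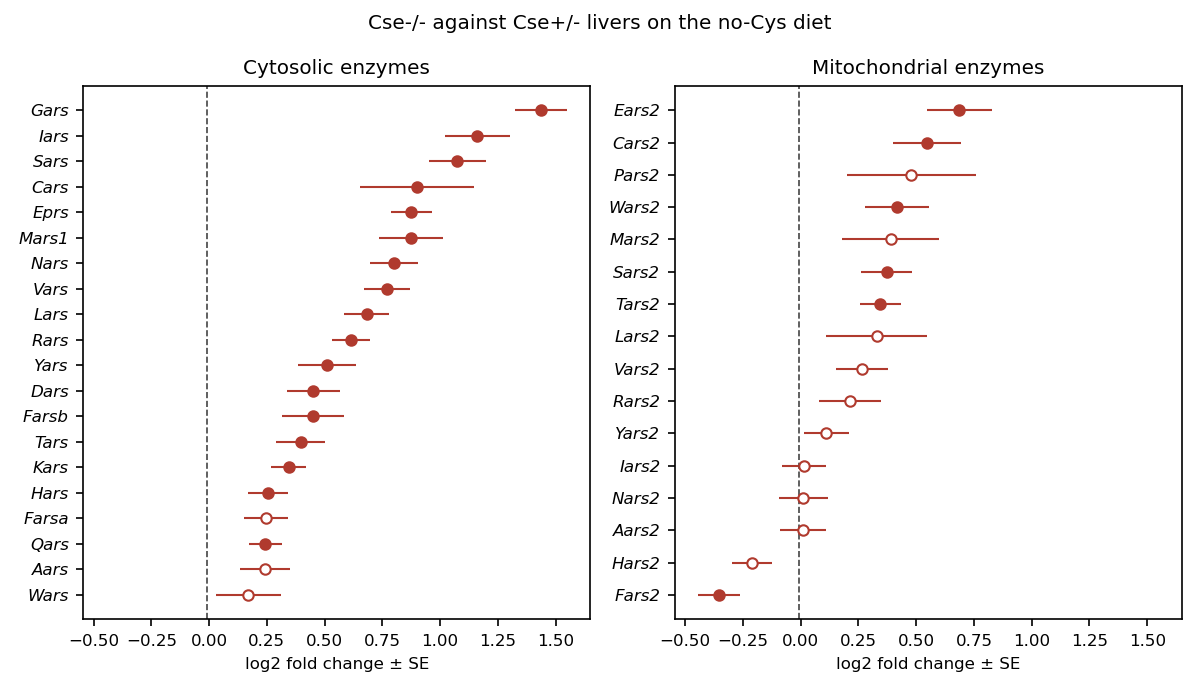
log2 fold change ± SE of each synthetase in Cse-/- against Cse+/- livers on the no-Cys diet (n = 4 each), with filled points for genes that passed the test and open points for those that did not. The dashed line is the median of all genes tested; cytosolic values run from 0.17 (Wars) to 1.44 (Gars) and mitochondrial values from -0.35 (Fars2) to 0.69 (Ears2).

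Gars, which encodes glycyl-tRNA synthetase for cytosol and mitochondria and lies on the forward strand of chromosome 6 (55038007 to 55079500, GRCm38), had the largest fold change of the 36. Its level was 138, 135, 132 and 96.0 CPM in the Cse-/- livers av05 to av08. In the Cse+/- livers av01 to av04 it was 45.8, 47.6, 48.1 and 43.6 CPM. The lowest Cse-/- liver, av08, still lay above the highest Cse+/- liver, av03. The log2 fold change was 1.44 ± 0.11 (SE, adjusted p = 1.06e-07), a 2.71-fold difference, and 1.55 without av08. On a per-length scale, the level of Gars in the Cse-/- livers was 40.2 RPKM (CPM per kilobase of merged exons), where Nars alone was higher, at 46.9 RPKM.

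Iars, the cytosolic isoleucyl-tRNA synthetase and a member of the multi-synthetase complex, was at 78.3, 74.0, 82.6 and 47.7 CPM in the Cse-/- livers. In the Cse+/- livers it was at 29.5, 30.6, 34.0 and 32.3 CPM. Again av08 was the lowest of its group without reaching the Cse+/- livers, and the log2 fold change was 1.16 ± 0.14 (adjusted p = 1.17e-05), and 1.31 without av08. Sars, the cytosolic seryl-tRNA synthetase, was at 172, 162, 177 and 111 CPM in the Cse-/- livers. Its Cse+/- livers were at 75.7, 69.7, 73.0 and 77.0 CPM. They too did not overlap, and the log2 fold change was 1.07 ± 0.12 (adjusted p = 7.77e-06), and 1.21 without av08.

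Cars charges cysteine itself, the amino acid missing from the diet. It was at 49.8, 46.5, 60.1 and 28.8 CPM in the Cse-/- livers. In the Cse+/- livers it was at 26.0, 20.9, 22.8 and 29.7 CPM. The groups overlapped, because av08 lay below the highest Cse+/- liver, av04. The log2 fold change of 0.90 ± 0.25 was the fourth largest of the cytosolic class and passed the test (adjusted p = 0.0120), and it was 1.07 without av08. The enzyme for the missing amino acid was thus raised with the class and did not lead it.

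The other called cytosolic members, in falling order of log2 fold change, were Eprs (0.87), Mars1 (0.87), Nars (0.80), Vars (0.77), Lars (0.68), Rars (0.61), Yars (0.51), Dars (0.45), Farsb (0.45), Tars (0.40), Kars (0.34), Hars (0.25) and Qars (0.24), with adjusted p-values between 2.27e-06 for Eprs and 0.0391 for Hars. Eprs charges both glutamate and proline, and Farsb encodes the β-subunit of phenylalanyl-tRNA synthetase. Kars, which like Gars serves cytosol and mitochondria, was at 76.6, 86.0, 74.8 and 78.4 CPM in Cse-/- livers. Its Cse+/- livers were at 58.1, 61.7, 67.0 and 61.8 CPM, without overlap, and its change of 0.34 ± 0.07 (adjusted p = 0.00252) was well below that of Gars. The calls of Farsb and Hars were lost when single livers were left out: Farsb without av01 or av07, and Hars without av01, av03, av04, av06 or av07.

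Wars, the cytosolic tryptophanyl-tRNA synthetase, changed least of its class. It was at 16.9, 19.1, 17.6 and 18.2 CPM in Cse-/- livers. In Cse+/- livers it was at 15.9, 17.0, 17.3 and 13.7 CPM, with overlap. Its log2 fold change was 0.17 ± 0.14 (95% interval -0.11 to 0.45, adjusted p = 0.408). Aars (0.24, adjusted p = 0.116) and Farsa, the α-subunit of phenylalanyl-tRNA synthetase (0.25, adjusted p = 0.0667), also did not pass the test. Wars is known as an interferon-induced synthetase. Of 10 interferon-response genes, 8 were lower in the Cse-/- livers (12.2% of all genes were) and none was higher, with a summed level of 62.9 to 88.1 CPM against 93.3 to 159 CPM; their part in the value of Wars was not tested.

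The 8 catalytic synthetases of the multi-synthetase complex (Dars, Eprs, Iars, Kars, Lars, Mars1, Qars and Rars) were all called higher, from 0.24 to 1.16 on the log2 scale around a median of 0.65. Of the 12 cytosolic members outside it, 9 were called higher, beside 11.6% of all genes, with a median of 0.48 and a range of 0.17 to 1.44. The ranges overlapped widely, and the difference was not tested. The transcripts of the complex's scaffold proteins Aimp1 (0.30, adjusted p = 0.0526), Aimp2 (0.34, adjusted p = 0.0977) and Eef1e1 (0.07, adjusted p = 0.817) did not pass the test.

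Among the mitochondrial enzymes, Ears2, which charges glutamate, had the largest value. It was at 18.2, 19.9, 17.9 and 16.7 CPM in Cse-/- livers. In Cse+/- livers it was at 11.9, 8.96, 13.4 and 11.0 CPM. No Cse+/- liver reached the Cse-/- group, and the log2 fold change was 0.69 ± 0.14 (adjusted p = 0.00171). Cars2, the mitochondrial enzyme for cysteine, was at 11.9, 11.5, 10.1 and 10.4 CPM in Cse-/- livers. Its Cse+/- livers were at 5.68, 7.13, 8.01 and 9.20 CPM, again without overlap, for a log2 fold change of 0.55 ± 0.15 (adjusted p = 0.0112). Cars2 shares 422 exon bases with Naxd on the opposite strand, and since no source used here gives the strand setting of the counting, reads of such antisense partners cannot be told apart.

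Wars2 and Sars2 followed with smaller values. Wars2, for tryptophan, was at 7.44, 7.26, 6.08 and 6.12 CPM in Cse-/- and at 4.78, 5.93, 4.51 and 4.88 CPM in Cse+/- livers. The gap between the groups was narrow, and the log2 fold change was 0.42 ± 0.14 (adjusted p = 0.0341). Sars2, for serine, was at 14.0, 14.1, 12.7 and 11.7 CPM in Cse-/- and at 8.02, 11.1, 11.0 and 10.3 CPM in Cse+/- livers. These groups did not overlap either, with a log2 fold change of 0.37 ± 0.11 (adjusted p = 0.0187). Both calls rest on single livers: that of Wars2 was lost without av01, av03, av04, av05 or av06, and that of Sars2 without av01 or av06. Tars2, for threonine, was higher by 0.34 (adjusted p = 0.00849).

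Fars2, the mitochondrial phenylalanyl-tRNA synthetase, was the only called member that was lower. It was at 26.4, 26.5, 27.9 and 28.0 CPM in Cse-/- livers. In Cse+/- livers it was at 28.7, 33.4, 39.7 and 37.1 CPM. The groups did not overlap but the gap was small, and the log2 fold change was -0.35 ± 0.09 (adjusted p = 0.00758). Of its exon bases, 10.7% overlap other genes on the opposite strand, mostly Nrn1, a well-counted gene. Lars2 varied most, from 133 to 278 CPM within the Cse-/- group, and its log2 fold change of 0.33 ± 0.22 did not pass the test. Aars2, Nars2 and Iars2 had values between 0.01 and 0.02.

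Each mitochondrial enzyme has a cytosolic partner for the same amino acid, which allowed the classes to be set side by side. Of 16 such pairs, in which Eprs stands for both glutamate and proline and Farsa for phenylalanine, the cytosolic log2 fold change was the larger in 15. Isoleucine had the widest gap, with 1.16 for Iars and 0.02 for Iars2. Of the exon bases of Iars2, 24.2% overlap genes on the opposite strand, mostly Rab3gap2, so that the strand limit given for Cars2 applies to this value too. Asparagine followed, with 0.80 for Nars and 0.01 for Nars2. The gap was smallest for threonine (0.40 for Tars, 0.34 for Tars2) and for glutamate (0.87 for Eprs, 0.69 for Ears2). Tryptophan alone had the opposite order, with 0.17 for Wars and 0.42 for Wars2. For cysteine the values were 0.90 for Cars and 0.55 for Cars2. Between the no-Cys and no-Trp diets in Cse-/- livers, the cytosolic value was the larger in 13 of 16 pairs. The exceptions were tryptophan (0.09 for Wars, 0.37 for Wars2), glutamate (0.54 for Eprs, 0.65 for Ears2) and threonine (0.27 for Tars, 0.28 for Tars2).

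**Figure D3:**
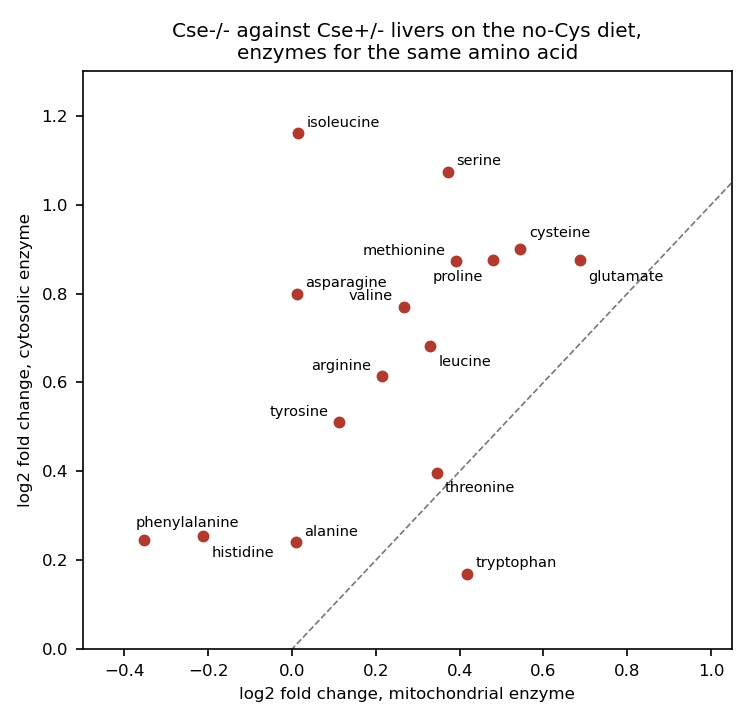
log2 fold change of the cytosolic enzyme (vertical axis) against that of the mitochondrial enzyme (horizontal axis) for 16 amino acids, in Cse-/- against Cse+/- livers on the no-Cys diet. Points above the dashed line of equal change, 15 of 16, had the larger change in the cytosolic enzyme; tryptophan lies below it.

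Promoter sequences were read for these genes, since ATF4 with a C/EBP partner is known to bind a composite element, and many members moved together. Windows from 250 bases before to 50 bases after the start site were taken from RefSeq (GRCm38.p6). They were read for 12 of 20 cytosolic genes (not Cars, Hars, Lars, Nars, Rars, Vars, Wars and 1 other whose promoter window is not reported) and for 14 of 16 mitochondrial genes (not Hars2 and Pars2). The letters TGATGNAA were searched on both strands. They occurred in 4 of 12 cytosolic windows (33.3%) and in 0 of 15 mitochondrial windows (Aars2 has more than 1), against 3.97% of all 32851 windows. The narrower TGATGCAA occurred in 3 of 12 cytosolic windows, against 0.895% of all. The 30 bases around each match are shown on the genes' own strand, with the matched letters in capitals, as the stretches that hold the match.
Gars, chr6:55037960-55037989, plus strand: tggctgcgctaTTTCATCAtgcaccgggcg
Iars, chr13:49682126-49682155, plus strand: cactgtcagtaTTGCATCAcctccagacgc
Yars, chr4:129189895-129189924, plus strand: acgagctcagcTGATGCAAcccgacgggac
Tars, chr15:11399655-11399684, minus strand: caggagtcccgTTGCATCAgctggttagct
The match in Yars reads along the gene and the other 3 read on the opposite strand. In Gars and Tars the match lies just before the start site, at -30 to -23 and at -15 to -8, and in Iars and Yars just after it, at 8 to 15 and at 4 to 11. Positions depend on the RefSeq start sites: the first 20 bases after the start occurred in a GENCODE transcript of the same gene for 18 of 26 members, with Iars, Yars and Tars among them but not Gars. For Gars, the 120 bases before the start site are given whole, as the member with the largest change.
Gars, chr6:55037881-55038000, plus strand: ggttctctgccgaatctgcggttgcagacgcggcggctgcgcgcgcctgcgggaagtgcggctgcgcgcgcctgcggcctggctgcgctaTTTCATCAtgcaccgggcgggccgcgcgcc
These 4 genes had log2 fold changes of 1.44 (Gars), 1.16 (Iars), 0.51 (Yars) and 0.40 (Tars), on both sides of the class median of 0.56. Members such as Sars (1.07), Eprs (0.87) and Mars1 (0.87) had no match. A match is a description of the letters, and no match says only that these letters are not in this window.

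The regulators of the response were read from a list of 8 genes, where 11.6% of all genes were called higher and 12.2% lower. In the Cse-/- livers on the no-Cys diet, 3 were higher: Nupr1, a stress-induced chromatin protein (3.78 ± 0.63, adjusted p = 0.000294), Atf5, a transcription factor of the ATF4 family (1.95 ± 0.23, adjusted p = 1.17e-05), and Trib3, a pseudokinase that is a target of ATF4 (1.63 ± 0.20, adjusted p = 1.80e-05). Nupr1 had low counts, at 0.283 to 0.917 CPM in Cse+/- livers, and varied from 1.70 to 15.2 CPM in Cse-/- livers. The transcripts of Cebpb (-0.68) and of Eif2ak4, which encodes GCN2 (-0.51), were lower. Atf4 itself (0.41, adjusted p = 0.137), Ddit3 (0.46, adjusted p = 0.0823) and Cebpg (0.25, adjusted p = 0.182) did not pass the test, while ATF4 is known to be set largely by translation. Mars1 and Ddit3 share 68 exon bases on opposite strands.

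Genes that act beside the synthetases were read from lists of their own, beside the 11.6% of all genes that were called higher. Of 8 cytosolic partners of charging, 1 was higher, Dtd1, which removes d-amino acids from transfer RNA (0.72, adjusted p = 0.00151), and none was lower, a share close to that of all genes. Of 5 cytosolic factors that deliver charged transfer RNA or move it on the ribosome, 3 were higher: Eef1g (0.40), Eef1b2 (0.34) and Eef2 (0.31). Of 4 mitochondrial partners of charging, 0 were called by edgeR and 0 by DESeq2, with 1 (Mtfmt) at an unadjusted p under 0.05, and their values ran from -0.42 (Mtfmt) to 0.32 (Qrsl1). Of 6 mitochondrial delivery factors, 1 was higher, Gfm2 (0.53, adjusted p = 0.000812), a factor of mitochondrial ribosome recycling, which is again a share near that of all genes.

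Some markers of liver cell types moved with the genotype too. Of 6 hepatocyte markers, the plasma protein genes Alb (-1.26), Ttr (-1.04) and Apoa1 (-0.77) were lower in Cse-/- livers on the no-Cys diet, whereas Tat (-0.10), Cyp2e1 (-0.04) and Hnf4a (0.07) did not pass the test. The summed level of the 6 was 46409 to 74474 CPM against 92558 to 114945 CPM. The 3 erythroid markers were also lower, at 59.4 to 101 CPM against 172 to 363 CPM. Of all genes, 11.6% were called higher and 12.2% lower, so that single calls in short lists lie near the background. Of the other lists, 1 of 5 endothelial markers was higher (Lyve1, 1.15), and 1 of 5 stellate (Lrat, -0.61), 1 of 4 cholangiocyte (Sox9, -0.78) and 1 of 3 tested lymphocyte markers (Ptprc, -0.50) were lower. The 6 Kupffer cell markers had values from -0.67 to -0.19 that did not pass the test. Counts on mitochondrially encoded genes made up 3.62% to 3.99% of each Cse-/- library and 5.17% to 5.84% of each Cse+/- library on this diet. The part of these differences in the synthetase result was not tested.

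The next comparison asked whether these changes belonged to the missing amino acid or to any missing amino acid, by setting Cse-/- livers on the no-Cys diet against Cse-/- livers on the no-Trp diet. Of the 20 cytosolic synthetases, 14 were higher and none was lower, with no overlap between groups for 13. Of the 16 mitochondrial synthetases, 3 were higher and none was lower. Of all genes, 10.4% were called, 5.05% higher and 5.35% lower, and 10.2% lay without overlap in the higher direction. The median log2 fold change was 0.46 for the cytosolic and 0.19 for the mitochondrial class, beside -0.01 for all genes. This comparison shares the no-Cys Cse-/- livers with the previous one. Of 6 hepatocyte markers, Ttr (-0.64), Apoa1 (-0.62) and Cyp2e1 (-0.38) were lower on the no-Cys diet and none was higher, and of 3 erythroid markers Alas2 (-0.68) was lower. Counts on mitochondrially encoded genes made up 3.62% to 3.99% of the no-Cys and 4.03% to 4.81% of the no-Trp libraries. The part of all these differences in the synthetase result was not tested.

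Gars was at 47.4, 55.5 and 59.9 CPM in Cse-/- livers av14 to av16 on the no-Trp diet, all well below the 96.0 to 138 CPM of the no-Cys livers, and its log2 fold change was 1.21 ± 0.12 (adjusted p = 1.42e-05). Iars was at 33.4, 36.1 and 45.3 CPM on the no-Trp diet, with av16 just under the lowest no-Cys liver, and differed by 0.89 ± 0.15 (adjusted p = 0.00121). Sars was at 81.0, 75.1 and 100 CPM, below the 111 to 177 CPM of the no-Cys livers, and differed by 0.86 ± 0.13 (adjusted p = 0.000616). In all 3 genes av16 was the highest of the no-Trp livers. Without av08 the values were 1.32 for Gars, 1.03 for Iars and 1.00 for Sars.

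Cars was at 27.5, 11.8 and 35.9 CPM in the no-Trp livers. The value of av15 was the lowest of all 20 livers, and the groups overlapped. The log2 fold change was 0.88 ± 0.26 (adjusted p = 0.0398), and without av15 it fell to 0.54 (adjusted p = 0.115). The call was also lost without av05, av06, av07 or av14. Vars, the cytosolic valyl-tRNA synthetase, had tighter groups, at 32.5, 36.6 and 42.8 CPM on the no-Trp diet and at 69.1, 69.7, 66.8 and 64.1 CPM on the no-Cys diet, and its difference of 0.85 ± 0.11 (adjusted p = 0.000115) held without any single liver.

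The other called cytosolic members in this comparison were Mars1 (0.82), Nars (0.72), Lars (0.65), Eprs (0.54), Rars (0.49), Yars (0.44), Aars (0.41), Hars (0.40) and Kars (0.32 ± 0.08, adjusted p = 0.0160). The calls of Aars and Yars were lost without av05, av06, av07, av14 or av15, that of Kars without av06 or av14, and that of Hars without av15. Dars, Farsa, Farsb, Qars, Tars and Wars did not pass the test, with values from 0.09 to 0.33. Wars was at 16.4, 16.2 and 17.9 CPM on the no-Trp diet, within or just under the 16.9 to 19.1 CPM of the no-Cys livers, and its log2 fold change was 0.09 ± 0.15 (95% interval -0.20 to 0.39, adjusted p = 0.745). The scaffold genes Aimp1 (0.38, adjusted p = 0.0420) and Aimp2 (0.59, adjusted p = 0.0212) passed the test here, and Eef1e1 (-0.05) did not.

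Of the mitochondrial enzymes, Ears2 was at 11.7, 12.2 and 10.8 CPM on the no-Trp diet, under all no-Cys livers, with a log2 fold change of 0.65 ± 0.15 (adjusted p = 0.0106). Vars2, for valine, was at 14.8, 17.0 and 20.2 CPM on the no-Trp and at 26.6, 26.8, 26.2 and 20.8 CPM on the no-Cys diet. The groups came close but did not overlap, and the difference was 0.53 ± 0.12 (adjusted p = 0.00948), a call lost without av14, and 0.61 without av08. Sars2 was at 10.6, 9.29 and 10.2 CPM on the no-Trp diet and higher by 0.39 ± 0.12 on the no-Cys diet (adjusted p = 0.0394), a call that was lost without any of av05, av06, av07, av14, av15 or av16. Cars2 (0.26, adjusted p = 0.297) and Wars2 (0.37, adjusted p = 0.106) did not pass the test.

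BSO was added to the no-Trp diet to lower glutathione in Cse-/- mice that still ate cysteine. Against the no-Trp diet alone, 1 of 20 cytosolic and 0 of 16 mitochondrial synthetases were called by edgeR, where 0.793% of all genes were called, 0.488% higher and 0.305% lower. Before adjustment, 7 cytosolic and 2 mitochondrial members had a p under 0.05, and DESeq2 called 1 and 0, among 356 of 14759 genes. The called member was Vars, at 58.7, 46.0, 52.0 and 49.3 CPM with BSO (av09 to av12) against the 32.5 to 42.8 CPM given above. The groups did not overlap, and its log2 fold change was 0.47 ± 0.11 (adjusted p = 0.0440). The call did not survive the removal of av09, av11, av12, av14 or av15.

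Small positive values were common in the cytosolic class with BSO. Of 20 members, 18 had a log2 fold change above 0, with a median of 0.23, and 7 did not overlap between groups in the higher direction, beside 6.47% of all genes. The mitochondrial median was 0.07. Counts on mitochondrially encoded genes made up 3.45% to 3.89% of the libraries with BSO and 4.03% to 4.81% of the no-Trp libraries without it. The part of this difference in the synthetase values was not tested. Cars was at 41.1, 36.4, 35.9 and 29.6 CPM with BSO, and its value of 0.50 ± 0.26 (95% interval -0.01 to 1.02, adjusted p = 0.432) was the largest of the class and did not pass the test. Gars was at 64.3, 65.8, 64.4 and 55.8 CPM with BSO, and its value was 0.21 ± 0.12 (adjusted p = 0.486).

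Setting the no-Cys Cse-/- livers against those on the no-Trp diet with BSO left 7 cytosolic members higher, where 2.75% of all genes were called, 1.33% higher and 1.42% lower. They were Gars (1.00), Sars (0.63), Iars (0.59), Nars (0.41), Vars (0.39), Eprs (0.37) and Rars (0.34). The median over the 20 was 0.35 and the lowest value was -0.16, of Wars. The hepatocyte markers Ttr (-0.82) and Apoa1 (-0.73) and the cholangiocyte marker Krt7 (-1.07) were lower in the no-Cys livers, and their part in the synthetase result was not tested. DESeq2 called 10 cytosolic members, among 878 of 14759 genes, where edgeR called 406. No mitochondrial member was called by edgeR or DESeq2, with 4 at an unadjusted p under 0.05. Liver av08 bears on this edgeR count, which was 12 without it, when 1027 of 14740 genes were called. Without av05, av06 or av07 only 1 cytosolic member was called, among 68, 52 and 95 of all genes. The count was 2 without av11 or av12 (72 and 161 of all genes), 3 without av09 (80) and 4 without av10 (335). With every liver, 406 of 14759 genes were called, so the calls over all genes moved too.

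On the no-Trp diet, the genotypes differed in 1 cytosolic member and in no mitochondrial member, beside 2.64% of all genes (1.40% higher, 1.24% lower). That member was Gars, at 47.4, 55.5 and 59.9 CPM in Cse-/- and at 43.5, 37.2 and 33.4 CPM in Cse+/- livers av17, av19 and av20. The groups did not overlap, and the log2 fold change was 0.52 ± 0.13 (adjusted p = 0.0370). The call was lost without av15, av16, av19 or av20. At an unadjusted p under 0.05, 8 cytosolic and 1 mitochondrial members differed, and DESeq2 called 2 cytosolic members, Gars and Dars (0.45 in both tools), and 0 mitochondrial members. Of all genes, DESeq2 called 723 of 14759. The cytosolic median was 0.14.

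Whether the genotype difference itself depended on the diet was tested by an interaction term. It was positive for 6 cytosolic members, where 4.36% of all genes were called, 1.67% in this direction and 2.69% in the other: Gars (0.92 ± 0.17), Sars (0.84 ± 0.19), Eprs (0.77 ± 0.13), Vars (0.74 ± 0.15), Rars (0.52 ± 0.12) and Hars (0.48 ± 0.13). For Gars, Sars, Eprs, Vars and Rars the difference between Cse-/- and Cse+/- livers was thus larger on the no-Cys than on the no-Trp diet. For Hars the difference changed sign, with 0.25 on the no-Cys and -0.22 on the no-Trp diet. All 20 cytosolic values were above 0, with a median of 0.48, beside -0.02 for all genes. DESeq2 called 9 cytosolic members, among 1058 of 14759 genes. When fitted to only the groups compared, edgeR called 4, among 375 of 14237 genes. No mitochondrial member was called by edgeR or by DESeq2, with 3 at an unadjusted p under 0.05 and a median of 0.23. The interaction was also negative for the hepatocyte markers Alb and Ttr (-0.81) and the erythroid marker Alas2 (-1.12), and positive for the endothelial marker Lyve1, all past the threshold, and the part of these markers in the synthetase result was not tested. Among the regulators it passed the test for Atf5 (1.57) and not for Trib3 (-0.49), which was higher in Cse-/- livers on the no-Trp diet too (2.12). The call of Hars was lost without any of 11 single livers, and that of Rars without av14 or av17. The count of cytosolic calls was 11 without av16, 9 without av08 and 4 without av14. Of all genes, 532 of 14710, 1150 of 14740 and 469 of 14687 were called in these fits, beside 643 of 14759 with every liver.

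In Cse+/- mice the diets changed few of these transcripts. Against the control diet, the no-Cys diet changed 0 of 36 members in edgeR, where 2.18% of all genes were called, 0.989% higher and 1.19% lower. Before adjustment, 2 cytosolic and 2 mitochondrial members had a p under 0.05, and DESeq2 called 1 cytosolic member, Eprs, which was lower on the no-Cys diet (-0.35 in both tools). Of all genes, DESeq2 called 615 of 14759. Cars was at 20.6 and 15.5 CPM in the control livers av21 and av22, below the 20.9 to 29.7 CPM of the no-Cys livers, and its log2 fold change of 0.46 ± 0.31 did not pass the test (adjusted p = 0.482), with 0.68 without av21 and 0.27 without av22. The value of Cars was the largest of the cytosolic class, around a median of 0.06, and the mitochondrial median was -0.09.

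The no-Trp diet against the control diet changed 0 of 36 members in either tool, where 0.0474% of all genes were called by edgeR (0.00678% higher, 0.0407% lower), with 2 cytosolic and 2 mitochondrial members at an unadjusted p under 0.05. Wars, which charges the missing tryptophan, was at 26.4, 17.2 and 14.0 CPM on the no-Trp diet and at 15.2 and 13.7 CPM on the control diet. Livers av17 and av19 lay above both control livers and av20 lay between them, and the log2 fold change was 0.40 ± 0.18 (95% interval 0.04 to 0.75, adjusted p = 0.519) but 0.12 without av17. Wars2 was at 4.34, 4.71 and 4.58 CPM on the no-Trp and at 5.71 and 5.15 CPM on the control diet (log2 fold change -0.25 ± 0.18, adjusted p = 0.704). With 2 control livers, these comparisons are the least precise.

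Between the no-Cys and no-Trp diets in Cse+/- mice, 0 of 20 cytosolic members and 1 of 16 mitochondrial members were called by edgeR and by DESeq2, beside 8.04% of all genes (4.63% higher, 3.41% lower). At an unadjusted p under 0.05, edgeR gave 6 and 2. Of all genes, DESeq2 called 1493 of 14759. The called member was Lars2, at 114, 138, 130 and 185 CPM on the no-Cys diet and at 210, 186 and 345 CPM on the no-Trp diet. The nearest livers, av04 and av19, lay close together without overlap, and the log2 fold change was -0.80 ± 0.23 (adjusted p = 0.0403). The call was lost without av01, av02, av03 or av20, and the value was -0.47 without av20, the liver at 345 CPM.

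**Figure D4:**
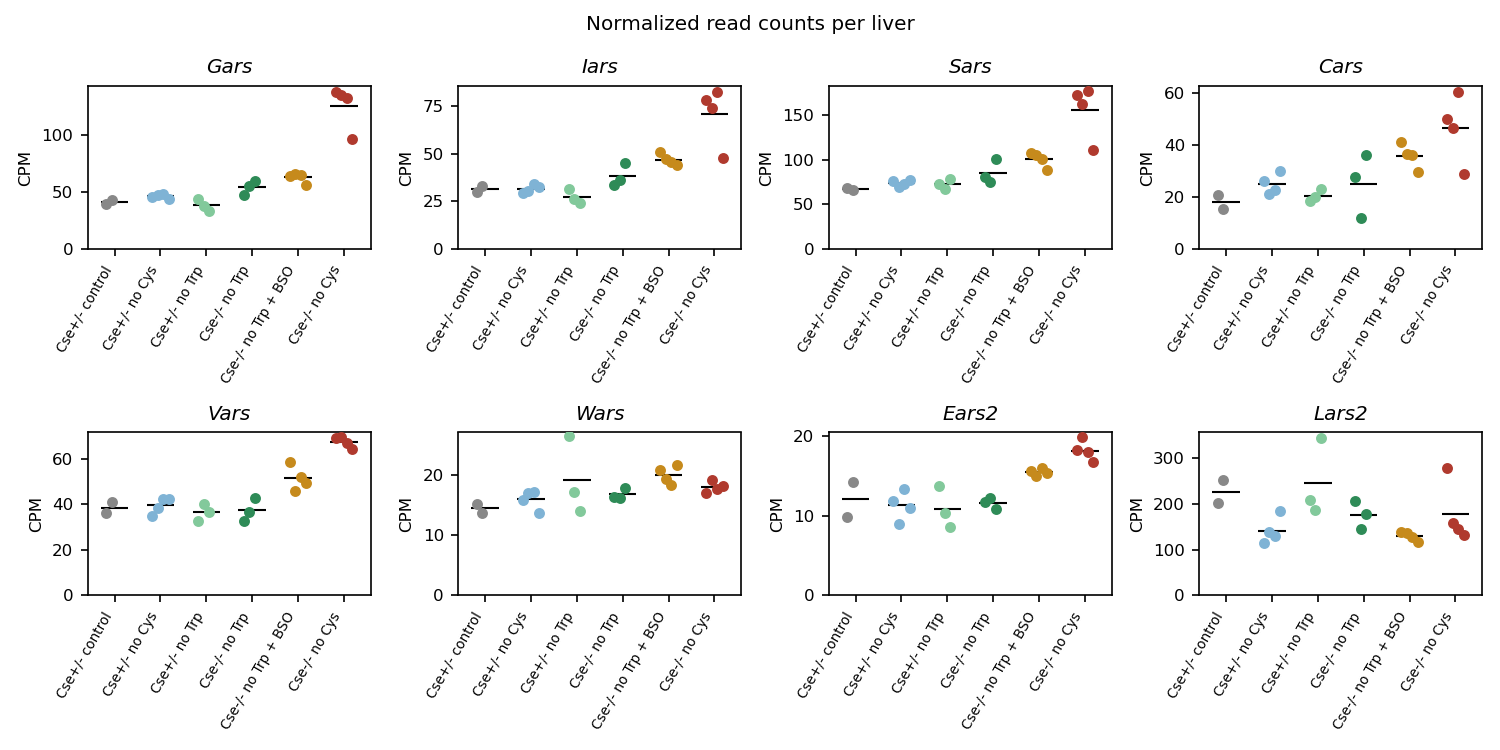
Normalized read counts (CPM) of 8 synthetases in each of the 20 livers, by group; points are livers and lines are group means, and each axis starts at 0. Gars, Iars, Sars and Cars have their highest group mean in the no-Cys Cse-/- livers, with av08 lowest of that group, Wars changes little, and Lars2 varies within groups.

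The level of each transcript per exon length was compared over all livers. Nars was the highest, at 32.0 RPKM, followed by Aars (20.9 RPKM), Gars (20.8 RPKM) and Mars1 (19.0 RPKM). The cytosolic enzymes filled the first 7 places, and Lars2 was the highest mitochondrial member, at 15.9 RPKM. The lowest cytosolic member was Cars, at 4.56 RPKM, and the lowest members of all were Mars2 (0.525 RPKM), Pars2 (0.610 RPKM) and Wars2 (0.903 RPKM), all mitochondrial. This order depends on the merged exon length, which was 11294 bases for Mars2 and 3094 bases for Pars2. Before division by length, Mars2 was at 3.95 to 9.12 CPM and Pars2 at 1.27 to 2.98 CPM. Pars2 had a log2 fold change of 0.48 ± 0.28 between the genotypes on the no-Cys diet, which did not pass the test (adjusted p = 0.225).

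**Figure D5:**
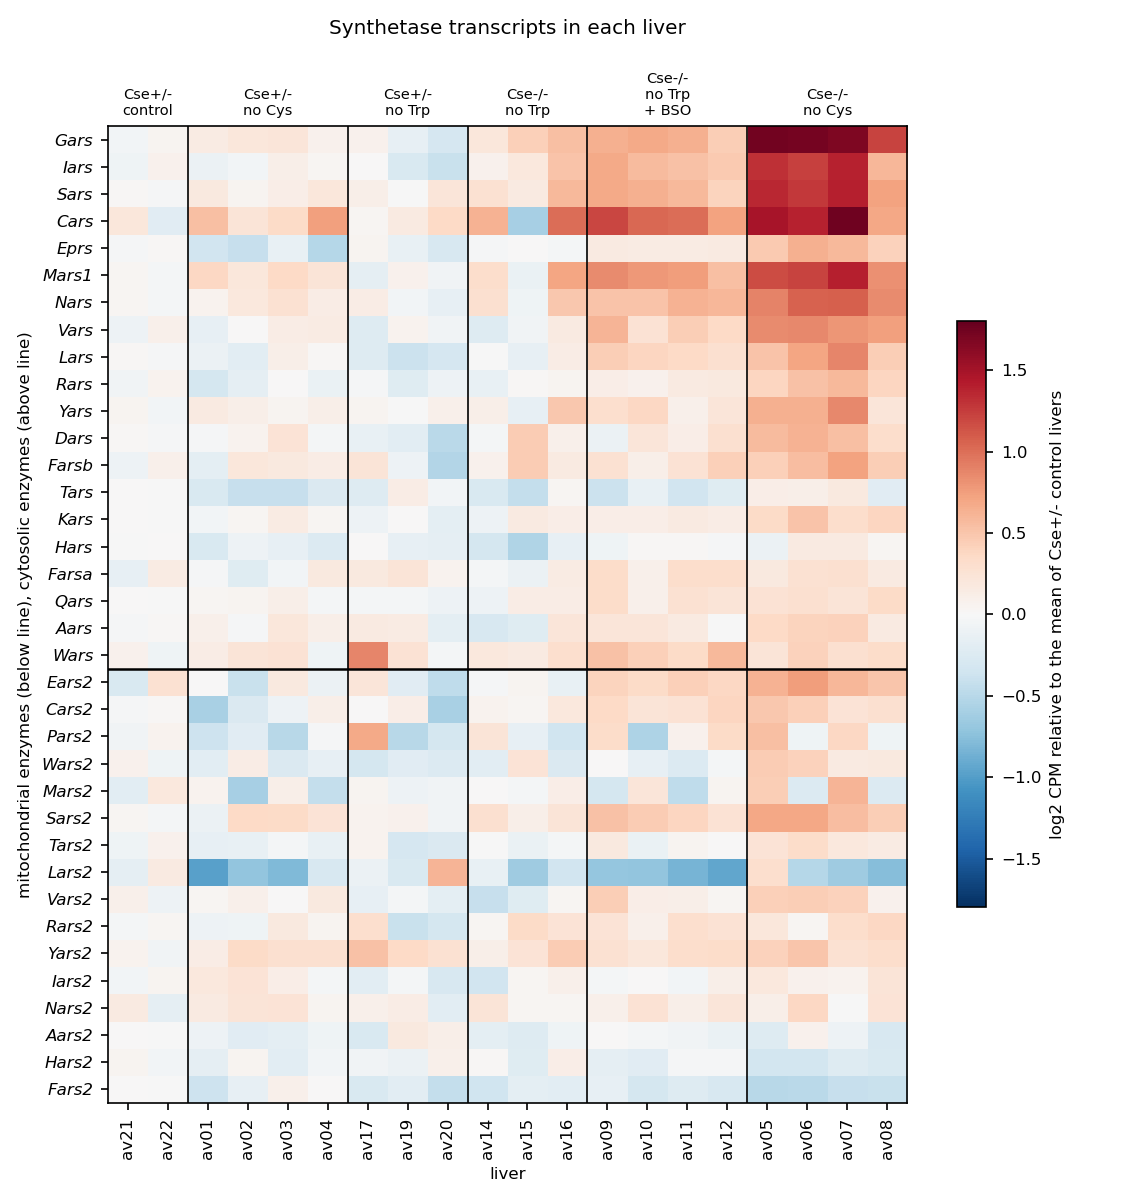
log2 CPM of the 36 synthetases (rows; cytosolic above the line, mitochondrial below) in the 20 livers (columns, by group), as the difference from the average of the 2 Cse+/- livers on the control diet, with rows in order of the fold change between genotypes on the no-Cys diet. The block of high values covers the upper cytosolic rows in the no-Cys Cse-/- livers, is weaker in av08, and appears at lower values in the livers given BSO.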

How the data were processed

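Poly(A) RNA of each liver was sequenced as paired reads. The deposited values are raw counts per gene: by the submitters' processing notes, the authors used HISAT2 2.1.0 for alignment to GRCm38 and HTSeq 0.11.0 for counting. The annotation release and the strand setting are not given in the sources used. The columns of the table are mouse numbers, which were assigned to the labelled groups by the study's list of mice; 1 column outside that list was not used. Every mouse is a separate animal, and no 2 livers of a group agreed within sampling noise (chi-square divided by the number of genes at least 9.60 in each of 25 pairs).

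From these counts, filterByExpr (edgeR 4.0.16, R 4.3.3; smallest count 10, smallest total 15) retained 14759 genes. A single quasi-likelihood model covered all 20 livers, with TMM factors and 1 mean for each group. Two-sided p-values were adjusted over all genes tested (Benjamini–Hochberg, threshold 0.05), and the SE is that implied by the F statistic. In simulated counts for the genotype comparison on the no-Cys diet (14463 genes), edgeR found 139 of 200 changed genes, or 46.3% at 1.5-fold, 70.2% at 2-fold and 92.4% at 4-fold, beside 6 false calls. There 200 of 14463 genes were changed, whereas 23.8% of genes were called in the livers. These rates depend on the share of changed genes and need not hold for the livers. Exon lengths, positions and overlaps are from GENCODE M21 (GRCm38). The promoter window of 1 cytosolic member is not reported here, so the promoter counts leave it out. Figures were drawn with matplotlib 3.10.9.

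The members and lists were chosen with earlier results of these data known. Values in every liver are given, for the genotype comparison on the no-Cys diet, for no Cys against no Trp in Cse-/- mice and for BSO, for up to 4 called members of each class with the largest change. They are also given for the enzymes of cysteine and tryptophan, for Gars and Kars, and for the cytosolic member that changed least. Values of Fars2 and Lars2 by liver, and the mitochondrial sum without Lars2, were added after the data were seen. The alternatives were DESeq2 1.42.0 (the tool of the study), other scaling factors (RLE or upper quartile), other filters (none, or a mean CPM of at least 1), a threshold of 0.01, fitting only the groups compared, thinning every library to the shallowest, and leaving out each liver in turn.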

Additional observations from a re-analysis of the deposited data

Results flagged for a closer look

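The spread within each group of 4 livers was examined for every member, 108 times in all, and in 5 of them 1 liver stood far from the other 3 by Dixon's criterion, which chance meets in about 1 of 20. Among the Cse-/- livers on the no-Cys diet, Gars was at 96.0 CPM in av08, against 132 to 138 CPM in the others. Vars2 was at 20.8 CPM in the same liver, against 26.2 to 26.8 CPM. Lars2 was at 278 CPM in av05, against 133 to 157 CPM. Among the livers given BSO, Farsa was at 28.5 CPM in av10, against 33.3 to 33.6 CPM, and Gars was at 55.8 CPM in av12, against 64.3 to 65.8 CPM.

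The effect of genotype differed between the no-Cys and no-Trp diets for 6 cytosolic synthetases, by the interaction term of edgeR, where 4.36% of all genes were called and 1.67% in this direction. The log2 fold change of Cse-/- against Cse+/- livers was higher on the no-Cys diet by 0.92 for Gars (adjusted p = 0.00448), 0.84 for Sars (adjusted p = 0.0153) and 0.77 for Eprs (adjusted p = 0.00345). It was higher by 0.74 for Vars (adjusted p = 0.00921), 0.52 for Rars (adjusted p = 0.0224) and 0.48 for Hars (adjusted p = 0.0442). For Hars it was 0.25 on the no-Cys and -0.22 on the no-Trp diet, of opposite sign. The call of Hars was lost without any of 11 single livers and that of Rars without av14 or av17.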

How the results depend on the processing

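No comparison reversed under any alternative. With a threshold of 0.01, the members called fell to 15 (3 mitochondrial) for genotype on the no-Cys diet, to 10 (9 cytosolic, 1 mitochondrial) for no Cys against no Trp in Cse-/- mice, to 3 for the interaction, to 1 for no Cys against no Trp with BSO, and to 0 for BSO, for genotype on the no-Trp diet and for the diets in Cse+/- mice, as a stricter threshold must lower them. With only the groups compared in the fit, which leaves fewer livers to estimate the spread, the members called were 9 (8 cytosolic, 1 mitochondrial) for no Cys against no Trp in Cse-/- mice, and 0 for BSO, for genotype on the no-Trp diet and for no Cys against no Trp in Cse+/- mice. For no Cys against no Trp with BSO, 4 were called without a filter and 4 after thinning. Without a filter, 15 cytosolic and 4 mitochondrial members were called for genotype on the no-Cys diet, with Hars, Qars, Sars2 and Wars2 lost, and 14 members for no Cys against no Trp in Cse-/- mice. DESeq2 called 2 for genotype on the no-Trp diet and 1, Eprs, for no Cys against control. Where not given by construction, the cause was not tested.

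Leaving out 1 liver at a time gave 19 to 24 members for genotype on the no-Cys diet (15 to 17 cytosolic, 4 to 7 mitochondrial, the 4 without av01 or av06), and 11 to 18 for no Cys against no Trp in Cse-/- mice (10 to 15 cytosolic, 1 to 4 mitochondrial, the 1 without av14 and the 4, of them 1 lower, without av15). The range was 4 to 11 for the interaction (0 to 1 mitochondrial, the 1 lower and without av01), 1 to 12 for no Cys against no Trp with BSO, 0 to 1 for BSO, 0 to 2 for genotype on the no-Trp diet (0 to 1 mitochondrial, the 1 without av17) and 0 to 2 for the diets in Cse+/- mice, where 2 were called without av04, 1 of them higher and 1 lower. Of all genes, the same fits called 2664 to 3500 for genotype on the no-Cys diet and 683 to 1855 for no Cys against no Trp in Cse-/- mice. They called 350 to 1150 for the interaction, 52 to 1027 for no Cys against no Trp with BSO and 36 to 172 for BSO. For genotype on the no-Trp diet they called 109 to 421, and for no Cys against no Trp in Cse+/- mice 597 to 1329. Of the alternatives run on the fold changes of single genes, 863 left the call as it was, 160 lost it and 4 gained it. Without av14 or with DESeq2, Dars passed for genotype on the no-Trp diet, and without av15 Wars2 passed for no Cys against no Trp in Cse-/- mice (0.53). With a control liver left out, the lone control was taken to vary like the other groups. No paired analysis was possible because the columns carry no replicate number.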
